A study of Mus musculus with 8 samples.

Results

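The senescence-associated secretory phenotype is the set of signalling proteins that senescent cells release, and 38 mouse genes for such proteins were followed here in whole liver. They were picked by gene symbol as known factors of the senescent secretome, not by a threshold on these data, and all 38 were among the 25239 genes of the count table. Earlier results of these data were known when they were picked. They comprise 6 cytokines, 10 chemokines, 6 growth factors, the adhesion receptor Icam1, 4 matrix metalloproteinases, 2 metalloproteinase inhibitors, 3 genes of plasminogen activation and 6 insulin-like growth factor (IGF) binding proteins. The knockout livers (labelled Zfp36l1 fl/fl Alb-Cre+, genotype Zf36l1 KO, 4 libraries) came from adult male mice with floxed Zfp36l1 alleles and an Alb-Cre transgene, in which hepatocyte-active albumin sequences drive Cre recombinase. The control livers (labelled Zf36l1 fl/fl, genotype WT, 4 libraries) came from adult male mice with the floxed alleles and no Cre, and no treatment is given for either group. The deletion therefore concerns hepatocytes, whereas many of the secreted factors are also made by macrophages, neutrophils, stellate cells and endothelium, which keep the gene. The study's title links the protein to senescent hepatocytes and to liver failure after alcohol, and the comparison of knockout with control livers addresses what the loss of this RNA-binding protein does to the liver transcriptome.

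Senescent cells stop dividing but stay active, and release interleukins, chemokines, growth factors, proteases and IGF-binding proteins. These recruit immune cells, remodel the matrix and act on neighbouring cells. In liver, the same genes are also switched on in injury and inflammation, with NF-κB and C/EBPβ as their best known transcription factors. ZFP36L1 belongs to the tristetraprolin family, whose zinc fingers bind AU-rich elements in the 3′ untranslated region (UTR) of messenger RNAs and recruit deadenylases, after which the RNA is degraded. Several secretome messages, Tnf above all, are textbook targets of this family.

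The stretches that carry such elements are shown first, because the family's core site, the heptamer UAUUUAU, lies in many of these messages. Each line gives 30 bases of RNA, 5′ to 3′, from the longest annotated 3′ UTR (GENCODE M21, GRCm38, the same assembly as mm10), with matches to the heptamer in capitals.
Tnf: UAUUUAUUAUUUAUUUAUUAUUUAUUUAUu
Cxcl1: aggguccUAUUUAUUUAUgUAUUUAUUUAU
Cxcl2: guucacuUAUUUAUUUAUcuaugUAUUUAU
Il1b: aaccacuuaccUAUUUAUUUAUgUAUUUAU
Il6: uuuaugauugaUAUUUAUuauuuuuaugaa
Mmp13: uuaaaaguuguUAUUUAUcucccagagagu
Igfbp2: uuugacacaugUAUUUAUauuuggaaagag
Cxcl12: accagcugcugUAUUUAUgugcuucauaag
The stretches lie at chr17:35199677-35199706 (minus strand) for Tnf, chr5:90892603-90892632 (plus) for Cxcl1, chr5:90905320-90905349 (plus) for Cxcl2 and chr2:129364807-129364836 (minus) for Il1b. Those of Il6 at chr5:30019728-30019757, Mmp13 at chr9:7282125-7282154, Igfbp2 at chr1:72852252-72852281 and Cxcl12 at chr6:117176367-117176396 are all on the plus strand. Tnf, Cxcl1, Cxcl2 and Il1b carry overlapping runs of the heptamer, whereas the stretches of Il6, Mmp13, Igfbp2 and Cxcl12 hold a single copy. Cxcl10 and Plaur, which enter the results below, have no match in their longest annotated 3′ UTR.

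The 8 libraries held 120200618 to 140582588 counts in the knockout and 104842873 to 132017092 counts in the control. Levels are given as CPM, counts scaled to a common library size with factors from the trimmed mean of M-values (TMM), and 3 counts correspond to 0.0217 to 0.0262 CPM in knockout and 0.0215 to 0.0277 CPM in control libraries. Zfp36l1 itself stood at 76.9, 57.9, 67.2 and 58.3 CPM in the knockout libraries, against 263, 237, 324 and 212 CPM in the control libraries. The groups were far apart, the knockout mean was 25.1% of the control mean, and the log2 fold change was -1.99 (SE 0.14, edgeR quasi-likelihood adjusted p = 0.000309). Of 12 hepatocyte markers, 11 were abundant enough to test and their sum was 117325 to 139201 CPM in the knockout and 102564 to 109980 CPM in the control. The unblocked edgeR fit called 0 of these 11, the fit with the replicate number as a block called 1 (Ttr, log2 fold change 0.41, adjusted p = 0.0351) and DESeq2 called 3 higher, and in 3 of the 11 every knockout value was above every control value (7.17% of all tested genes). The exception was Ass1, a urea cycle enzyme known to be abundant in liver, which the table lists at 0.0145 to 0.0611 CPM in all 8 libraries. Whether these counts represent its level was not tested. Knockout libraries 1 and 4 stood apart in neutrophil genes: 10 markers summed to 82.8, 1.99, 1.53 and 36.4 CPM in knockout libraries 1 to 4, against 6.62, 1.58, 2.11 and 14.0 CPM in control libraries 1 to 4. Nothing in the labels states that the 4 numbered libraries of a group are 4 mice, so p-values here refer to variation among the libraries, which may in part be technical. A liver library mixes cell types, and fewer cells of a type and less RNA per cell cannot be told apart.

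No secretome gene passed the test in the unblocked comparison of knockout with control livers. Of the 38 genes, 32 had enough counts to test, and 0 were higher and 0 were lower at an adjusted p below 0.05 in edgeR's quasi-likelihood test, where 3.51% of all 14861 tested genes were higher and 1.88% were lower (5.39% in either direction). At an unadjusted p below 0.05, 4 were higher in the knockout (Cxcl10, Igfbp2, Plaur and Mmp13) and 1 was lower (Cxcl12), against 21.5% of all tested genes in either direction. When the replicate number was added to the fit as a block, the IGF-binding protein Igfbp2 and the interferon-inducible chemokine Cxcl10 rose and the neutrophil attractant Cxcl1 fell, where 4.39% of all genes rose and 2.52% fell (6.92% in either direction). The labels do not say what a number shares, so this pairing was inferred from these same counts. DESeq2 called Igfbp2, Cxcl10 and the urokinase receptor Plaur as higher and no member as lower, where 6.82% of all genes were higher and 4.87% were lower (11.7% in either direction).

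Fold changes of the 32 tested genes nevertheless lay mostly above 0. In 24 of 32 (75.0%) the log2 fold change was positive, against 48.4% of all tested genes, and the median was 0.29, against -0.01 over all genes. With library sizes left as total counts, the median of all genes shifted to -0.12, and 23 members stayed above 0 with a median of 0.18. The members were less precisely measured than the average gene, since their median level was 2.10 CPM, against 11 CPM over all genes, and the median standard error of a log2 fold change was 0.30, against 0.13. For 15 genes the 95% interval lay within a 2-fold change in either direction. Igfbp7 had the narrowest interval of the 32 and Mmp9 the widest. In 8 of 32 genes (25.0%) the knockout library was higher in all 4 same-numbered pairs, and in 2 (6.25%) it was lower in all 4, against 15.8% and 17.7% of all genes. In 0 of the 32 tested genes did the knockout and control values form groups without overlap, where 7.17% of all genes had every knockout value above every control value and 7.93% had it below.

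**Figure D1:**
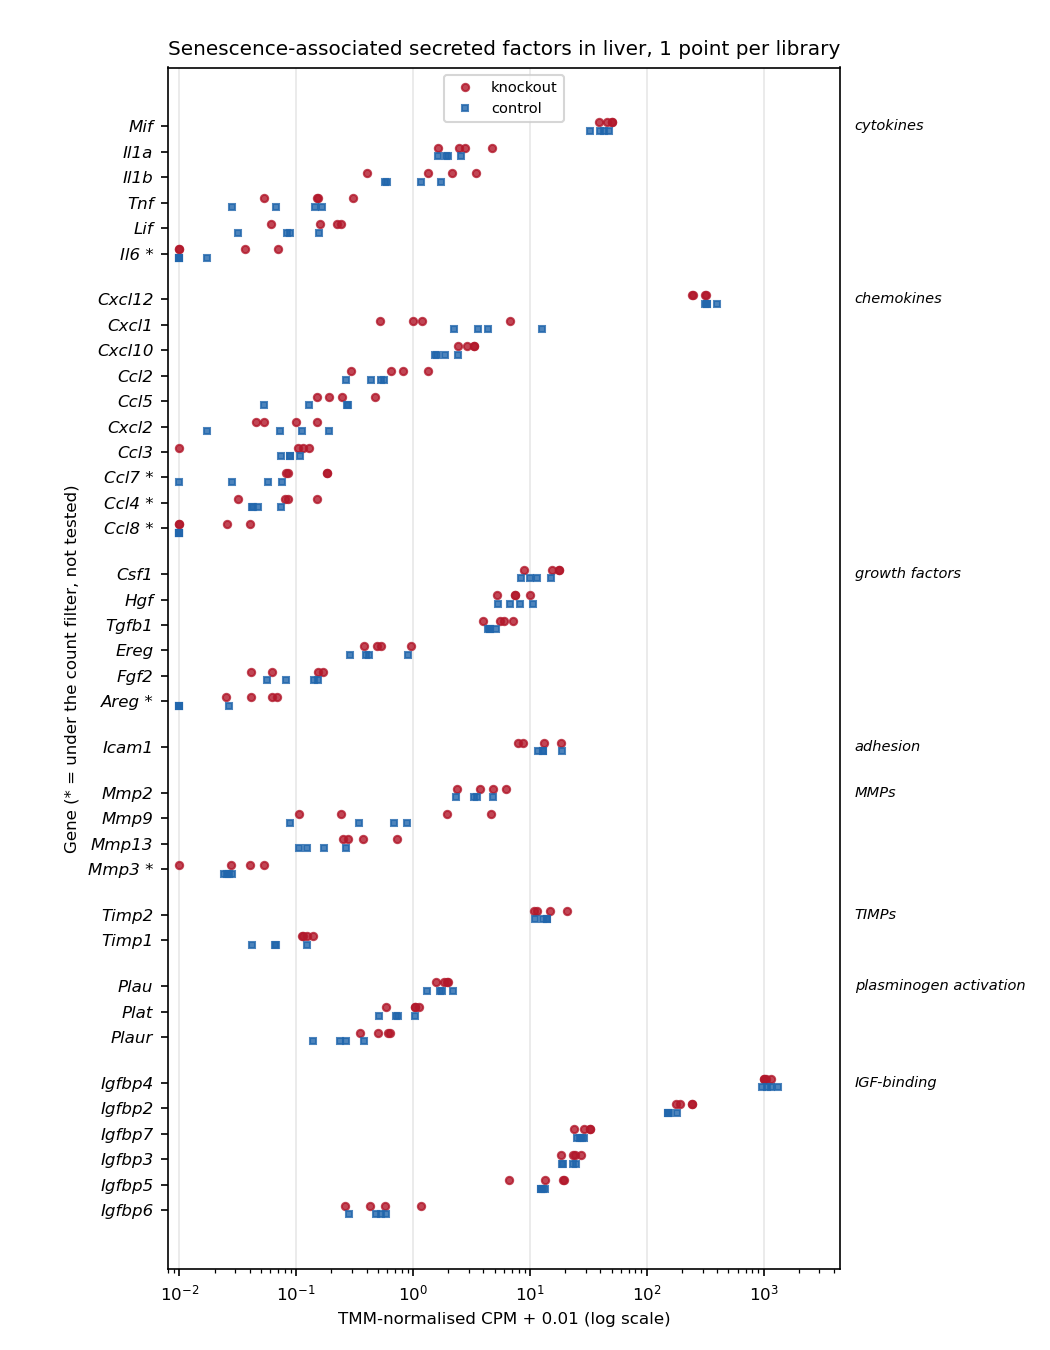
TMM-normalised level (CPM plus 0.01, log axis) of the 38 genes in each knockout (red circles) and control (blue squares) library, grouped by role, with genes under the count filter starred. Igfbp4, Cxcl12 and Igfbp2 lie above 100 CPM, most cytokines and chemokines lie below 5 CPM, and the groups overlap for every tested gene.

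Per kilobase of transcript, the secretome of these livers was dominated by a few genes. Averaged over all 8 libraries, Igfbp4 stood at 520 CPM per kilobase, Igfbp2 at 132, Mif at 75.1, Cxcl12 at 43.6 and Igfbp7 at 23.4, and Il6 was lowest at 0.0102. On the CPM scale, Igfbp4, Cxcl12 and Igfbp2 together made up 88.2 to 90.0% of the summed level of the 38 genes in knockout and 90.4 to 90.5% in control libraries. That sum was 1584 to 1810 CPM in the knockout and 1685 to 1978 CPM in the control, and the groups overlapped.

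All 5 tested cytokines had a positive log2 fold change, with a median of 0.75, and none passed the test. Mif, the macrophage migration inhibitory factor that hepatocytes make constitutively, had 50.3, 50.6, 45.8 and 39.2 CPM in the knockout, against 47.5, 42.9, 32.6 and 40.1 CPM in the control, a log2 fold change of 0.19 (SE 0.12, adjusted p = 0.411). Il1a, an alarmin that drives much of the secretome, had 2.48, 1.63, 2.77 and 4.70 CPM in the knockout, against 2.57, 1.61, 1.98 and 1.90 CPM in the control (0.52, SE 0.30, adjusted p = 0.342). Knockout library 4 was the highest for Il1a, knockout library 3 was also above all controls, and the other knockout libraries were inside the control range.

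Il1b, the inflammasome-processed partner of Il1a, had 2.15, 0.393, 1.33 and 3.44 CPM in the knockout, against 1.74, 0.561, 0.587 and 1.15 CPM in the control (0.87, SE 0.62, adjusted p = 0.458). Knockout library 2 held the lowest and knockout library 4 the highest value of all 8, so the groups overlapped through the whole control range. The summed level of 11 Kupffer cell markers, those of the resident liver macrophage, was 322, 149, 200 and 415 CPM in knockout libraries 1 to 4, in the same order as Il1b, and 258, 189, 251 and 262 CPM in control libraries 1 to 4. Among controls the order differed at the top, with Il1b highest in library 1 and the Kupffer sum in library 4, while both were lowest in library 2. All 11 of these markers were tested and 0 were called, and their part in the Il1b values was not tested. Il1a and Il1b are each overlapped by an annotated antisense gene (Gm14023 and Il1bos), and since the strand setting of the counting is not given, reads of the partners cannot be told apart. The same limit holds for Cxcl10, Fgf2, Timp1 and Igfbp7, which overlap Art3, Nudt6, Syn1 and Polr2b on the other strand, and Timp2 overlaps Cep295nl on its own strand.

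Tnf and Lif, an inflammatory cytokine and an IL-6 family cytokine, were near the detection limit. Tnf was represented by 38, 16, 6 and 19 counts in the knockout, against 2, 17, 8 and 19 counts in the control (log2 fold change 0.75, SE 0.65, adjusted p = 0.549). Lif had 0.212, 0.148, 0.0506 and 0.233 CPM in the knockout, against 0.0739, 0.0790, 0.0215 and 0.148 CPM in the control (1.00, SE 0.59, adjusted p = 0.358). Lif was higher in the knockout library of all 4 same-numbered pairs, but its groups overlapped. Il6, a defining secretome cytokine, had 0, 3, 0 and 8 counts in the knockout and 0, 0, 1 and 0 counts in the control and was under the count filter, so a difference was not detectable at this depth.

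Among the 10 chemokines, Cxcl1 and Cxcl12 were lower and Cxcl10, Ccl2 and the rare Ccl7 were higher in all 4 same-numbered pairs. Of the 7 tested, 3 had a positive log2 fold change and the median was -0.03. Cxcl1 (chr5:90891241-90893115, plus strand) encodes a ligand of CXCR2 that attracts neutrophils. It had 0.998, 1.19, 0.513 and 6.80 CPM in knockout libraries 1 to 4, against 3.60, 4.37, 2.25 and 12.7 CPM in control libraries 1 to 4. Within each group library 4 was the highest and library 3 the lowest, and knockout library 4 was above 3 of the 4 control libraries. The unblocked log2 fold change was -1.27 (SE 0.91, adjusted p = 0.471), whereas with the replicate number as a block it was -1.66 (SE 0.21, 95% interval -2.14 to -1.17, adjusted p = 0.00695). Knockout over control was -1.85, -1.88, -2.13 and -0.90 on the log2 scale in pairs 1 to 4. The blocked call held with each of the 4 pairs left out (adjusted p 0.00205 to 0.0368), while in the unblocked fit leaving out knockout library 4 gave -2.67 (adjusted p = 0.0767) and leaving out control library 4 gave -0.51. The neutrophil markers went the other way from this chemokine in pairs 1, 2 and 4, where their sum was higher in the knockout library.

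**Figure D2:**
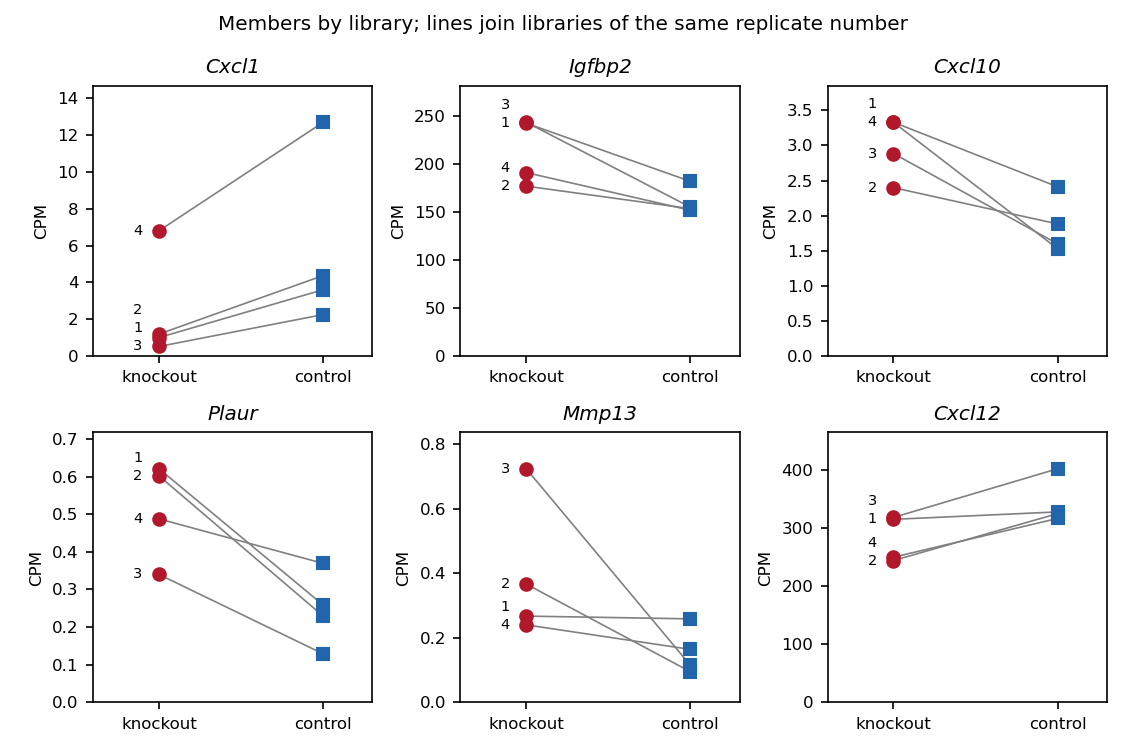
CPM of 6 genes in knockout (red circles) and control (blue squares) libraries, with lines joining libraries of the same replicate number, which stands beside the knockout point. Cxcl1 and Cxcl12 are lower and Igfbp2, Cxcl10, Plaur and Mmp13 are higher in the knockout library of all 4 pairs, with library 4 far above the rest for Cxcl1 in both groups.

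Cxcl10 (chr5:92346638-92348889, minus strand), a ligand of CXCR3 that attracts T cells, had 3.33, 2.40, 2.89 and 3.33 CPM in the knockout, against 2.41, 1.88, 1.60 and 1.53 CPM in the control. Knockout library 2 lay just below control library 1, and the other knockout libraries were above the control range. Its log2 fold change was 0.69 (SE 0.18, 95% interval 0.28 to 1.1, adjusted p = 0.0620), and 0.70 with the block (SE 0.17, adjusted p = 0.0480). The blocked call was lost with any of the 4 pairs left out (adjusted p 0.0808 to 0.120) and with library sizes left as total counts (adjusted p = 0.0585). Cxcl10 lies within the gene Art3 on the other strand, for which the log2 fold change was -0.01 (adjusted p = 0.979). Summed T and NK cell markers were 1.71 to 5.15 CPM in the knockout and 2.61 to 6.40 CPM in the control, and of the 10 tested the unblocked fit called 0 and the blocked fit Prf1 as higher and Cd4 as lower.

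Cxcl12, a homeostatic chemokine of stromal and endothelial cells, had 315, 244, 318 and 250 CPM in the knockout, against 328, 325, 402 and 316 CPM in the control. Control library 3 was the highest of the 8, and 1 knockout value lay just inside the control range. The log2 fold change was -0.28 (SE 0.12, 95% interval -0.55 to -0.02, adjusted p = 0.197), and -0.29 with the block (adjusted p = 0.0720). Endothelial markers summed to 275 to 379 CPM in the knockout and 260 to 356 CPM in the control, and of the 11 tested the unblocked fit called 0 and the blocked fit Lyve1 as higher.

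The monocyte attractant Ccl2 had 0.809, 0.637, 0.282 and 1.34 CPM in the knockout, against 0.526, 0.553, 0.258 and 0.427 CPM in the control (log2 fold change 0.80, SE 0.44, adjusted p = 0.326). Ccl7, which shares the receptor CCR2 with Ccl2, was under the count filter with 22, 20, 10 and 10 counts in the knockout, against 2, 6, 0 and 8 counts in the control. The Ccl7 groups did not overlap, and with no filter its log2 fold change was 1.88 with an adjusted p of 0.198. The remaining chemokines were rare. Cxcl2, another CXCR2 ligand (-0.16, adjusted p = 0.921), Ccl3 (-0.03, adjusted p = 0.984) and Ccl5 (0.58, adjusted p = 0.594) stayed below 0.5 CPM in all libraries. Ccl4 had 18, 8, 3 and 10 counts in the knockout and 4, 4, 9 and 4 in the control. Ccl8 had 2, 0, 0 and 4 counts in the knockout and 0 in all 4 control libraries, a count of 0 that allows up to 0.0215 to 0.0277 CPM per library.

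None of the 5 tested growth factors passed the test. Csf1, the survival factor of macrophages, had 15.5, 8.87, 17.8 and 17.9 CPM in the knockout, against 11.6, 8.39, 9.99 and 15 CPM in the control (log2 fold change 0.42, SE 0.25, adjusted p = 0.363). It was higher in the knockout library of all 4 pairs, and the adjusted p with the block was 0.0944. Hgf, the stellate cell mitogen for hepatocytes, had 7.41, 5.24, 9.98 and 7.47 CPM in the knockout, against 5.32, 8.27, 10.6 and 6.79 CPM in the control (-0.04, SE 0.24, adjusted p = 0.938). The fibrogenic cytokine Tgfb1 (0.30, adjusted p = 0.340), the EGF receptor ligand Ereg (0.24, adjusted p = 0.781) and Fgf2 (-0.02, adjusted p = 0.986) were likewise not called. Areg, a second EGF receptor ligand, had 4, 6, 8 and 2 counts in the knockout and 0, 0, 0 and 2 counts in the control, under the filter. Icam1, which arrests leukocytes on endothelium, had 13.2, 7.83, 8.70 and 18.4 CPM in the knockout, against 12.9, 13, 11.7 and 19.0 CPM in the control (-0.23, SE 0.28, adjusted p = 0.676). Library 4 was the highest in both groups for Icam1.

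The matrix metalloproteinases had the highest median log2 fold change of the roles, 1.35 over the 3 tested, and 0 were called. Mmp9, the gelatinase stored in neutrophil granules, had 4.60, 0.0960, 0.231 and 1.94 CPM in the knockout, against 0.683, 0.0790, 0.337 and 0.870 CPM in the control (1.81, SE 1.18, adjusted p = 0.423). Without knockout library 1 the log2 fold change of Mmp9 was 0.63, and with the block it was 1.12 (adjusted p = 0.276). Knockout libraries 1 and 4 were the highest of the 8 and knockout libraries 2 and 3 were inside the control range. These are the same libraries in which the neutrophil markers stood apart, and S100a8 followed them at 15.5, 0.0174, 0.0579 and 6.16 CPM in the knockout, against 0.766, 0.111, 0.0859 and 1.49 CPM in the control. Of the 10 neutrophil markers, 8 were tested and 0 were called, and their part in the Mmp9 values was not tested. The defining marker Ly6g had 48, 2, 0 and 16 counts in the knockout, against 0, 0, 0 and 4 counts in the control.

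**Figure D3:**
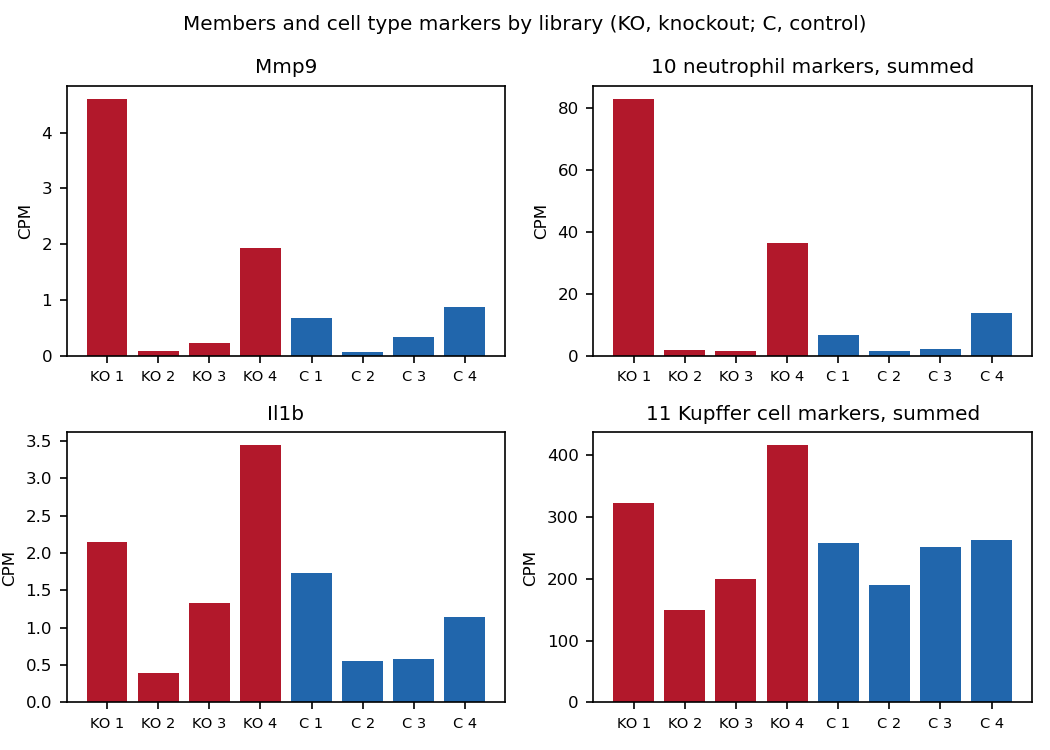
CPM per library of Mmp9, of 10 summed neutrophil markers, of Il1b and of 11 summed Kupffer cell markers, with knockout libraries (KO, red) left of control libraries (C, blue) and axes from 0. Mmp9 and the neutrophil sum are both highest in knockout library 1 and next in knockout library 4, and Il1b and the Kupffer sum are both highest in knockout library 4 and lowest in knockout library 2.

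Mmp13, the main collagenase of rodents, had 0.267, 0.366, 0.723 and 0.240 CPM in the knockout, against 0.259, 0.0948, 0.115 and 0.164 CPM in the control. Knockout library 3 was the highest and knockout library 4 lay inside the control range. Its log2 fold change was 1.35 (SE 0.45, 95% interval 0.34 to 2.35, adjusted p = 0.118), and it was called neither with the block (adjusted p = 0.135) nor by DESeq2 (adjusted p = 0.0519). Mmp2, a gelatinase of stellate cells and fibroblasts, had 3.75, 2.36, 6.19 and 4.83 CPM in the knockout, against 2.31, 3.32, 3.53 and 4.85 CPM in the control (0.29, SE 0.30, adjusted p = 0.622). Mmp3 had 0, 2, 6 and 4 counts in the knockout and 2 in each control library. Of the inhibitors, Timp2 had 10.8, 11.4, 20.6 and 15 CPM in the knockout, against 11, 13.9, 12.8 and 14.0 CPM in the control (0.16, SE 0.20, adjusted p = 0.676). Timp1, an acute phase inhibitor of metalloproteinases, had 0.102, 0.105, 0.130 and 0.113 CPM in the knockout, against 0.0554, 0.0316, 0.0573 and 0.115 CPM in the control (0.79, SE 0.41, adjusted p = 0.300). Stellate cell markers summed to 319 to 501 CPM in the knockout and 267 to 405 CPM in the control, with 0 called.

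The 3 genes of plasminogen activation had positive log2 fold changes, and edgeR called 0 of them with or without the block. At an unadjusted p below 0.05, 1 was higher (Plaur), and DESeq2 also called Plaur alone. Plaur, which holds urokinase at the cell surface, had 79, 69, 47 and 65 counts in the knockout, against 28, 29, 18 and 45 counts in the control, or 0.621, 0.602, 0.340 and 0.488 CPM against 0.259, 0.229, 0.129 and 0.369 CPM. Knockout library 3 was the only one below the highest control library. The log2 fold change was 1.06 (SE 0.34, 95% interval 0.29 to 1.83), with an adjusted p of 0.110 in the unblocked fit, 0.0552 with the block and 0.0426 by DESeq2. Urokinase itself, Plau, had 1.82, 1.55, 1.97 and 1.94 CPM in the knockout, against 1.75, 1.3, 2.18 and 1.69 CPM in the control (0.08, SE 0.18, adjusted p = 0.843). Tissue plasminogen activator, Plat, had 0.574, 1.03, 1.12 and 1.02 CPM in the knockout, against 0.499, 1.02, 0.702 and 0.738 CPM in the control (0.34, SE 0.28, adjusted p = 0.524).

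The IGF-binding proteins, which carry IGF in blood and tissue, were the best measured of the set. Igfbp4 was the most abundant, with 997, 1005, 1042 and 1155 CPM in the knockout, against 1067, 1163, 967 and 1323 CPM in the control. Its log2 fold change was -0.11 with a 95% interval of -0.34 to 0.13 (adjusted p = 0.598). Igfbp2 (chr1:72824503-72852474, plus strand), a hepatocyte product, had 242, 177, 243 and 191 CPM in the knockout, against 182, 153, 155 and 151 CPM in the control, means of 213 ± 34.5 and 160 ± 14.3 CPM (SD, n = 4 each). Knockout libraries 1, 3 and 4 were above all control libraries and knockout library 2 was below control library 1 alone. Its log2 fold change was 0.41 (SE 0.12, 95% interval 0.15 to 0.68, adjusted p = 0.0761), and 0.40 with the block (SE 0.08, adjusted p = 0.0311). DESeq2 gave Igfbp2 an adjusted p of 0.0163. The blocked call stayed with 1 of the 4 pairs left out (adjusted p 0.0486 to 0.118) and was lost with library sizes left as total counts (adjusted p = 0.0592).

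The other IGF-binding proteins were not called by edgeR, with or without the block. Igfbp3, the main carrier in blood, had 27.4, 18.3, 23.2 and 24.3 CPM in the knockout, against 19.3, 23.3, 24.6 and 18.7 CPM in the control (0.12, SE 0.13, adjusted p = 0.650). Igfbp5 had 6.66, 13.4, 19.4 and 19.2 CPM in the knockout, against 12.5, 13.3, 12.4 and 12.9 CPM in the control (0.20, SE 0.29, adjusted p = 0.736), so the knockout libraries spread widely around tightly grouped controls. Igfbp7 had a log2 fold change of 0.12 with an interval of -0.11 to 0.35 (adjusted p = 0.540), and Igfbp6 one of 0.39 (adjusted p = 0.651).

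**Figure D4:**
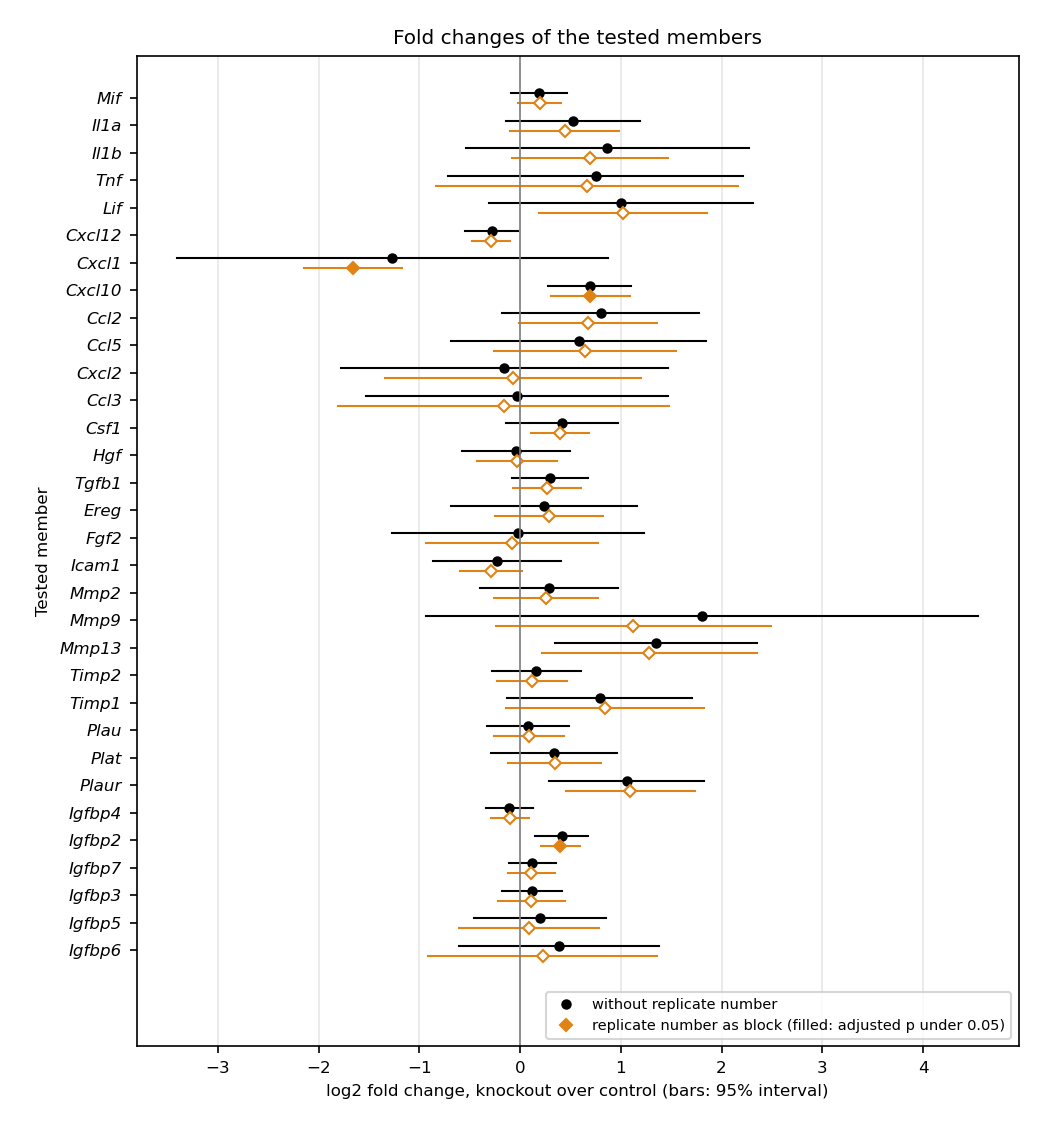
Log2 fold change, knockout over control, with 95% intervals for the 32 tested genes, without the replicate number (black circles) and with it as a block (orange diamonds, filled where the adjusted p is below 0.05). Igfbp2, Cxcl10 and Cxcl1 are the filled ones, and the interval of Cxcl1 narrows most with the block.

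Spread among the libraries was wide for these genes in both groups. The median coefficient of variation was 39.2% in the knockout and 28.8% in the control, against 11% and 13.5% over all tested genes. It was larger in the knockout for 19 of 32 genes, against 39.1% of all tested genes. Knockout library 2 held the lowest knockout value for 16 of the 32 genes (50.0%, against 29.3% of all genes), and knockout library 4 the highest for 11 (34.4%, against 26.8%), among them Il1a, Il1b, Lif, Cxcl1, Ccl2, Csf1 and Icam1. Knockout library 3 held the highest value for 12 (37.5%, against 20.4%). The controls were uneven too. Control library 4 held the highest control value for 14 (43.8%, against 24.6%) and control library 3 the lowest for 12 (37.5%, against 30.9%). Recruited macrophage markers summed to 40.6 to 51.6 CPM in the knockout and 23.3 to 28.6 CPM in the control. All 10 had a log2 fold change above 0 (median 0.84), against 48.4% of all tested genes. Of these, 7 were higher in the knockout library of all 4 pairs, against 15.8% of all tested genes. Cd9, which made up most of that sum, had 33.4 ± 4.22 CPM in the knockout and 19.9 ± 1.33 CPM in the control (SD, n = 4 each, log2 fold change 0.75, adjusted p = 0.00518). The unblocked fit called Cd9 and Mmp12 as higher (3.51% of all tested genes), and the blocked fit Cd9 and Lgals3 (0.93, adjusted p = 0.0433, with 4.39% of all tested genes higher). A log2 fold change above 0 in every tested marker was not particular to this list. It also held for 11 Kupffer cell (median 0.22), 8 neutrophil (2.37) and 6 B cell markers (0.46), with 0 called by edgeR. Endothelial markers lay above 0 in 9 of 11, stellate cell markers in 7 of 12 and T and NK cell markers in 5 of 10. Cholangiocyte markers summed to 49.1 to 61.0 CPM in the knockout and 68.4 to 78.0 CPM in the control, with Sox9 lower (-1.18, adjusted p = 0.0242). Of the 7 tested cholangiocyte markers, 3 had a log2 fold change above 0, up to 0.41, and none of the other 6 was called. The part of these cell types in the secretome values was not tested.

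Of 30 further secreted factors of the phenotype, 25 were tested, of which 3 rose and 1 fell, where 3.51% of all tested genes rose and 1.88% fell, and their median log2 fold change was 0.20. This list and those that follow were chosen with earlier results of these data known. Their counts of calls are therefore not independent evidence when set against the share of all genes. With the block Inhba rose, and Serpine2 and the interleukin Il18 fell (Il18 -0.45, adjusted p = 0.0490, and 0.104 without the block). Inhba, the activin A subunit, had 27.9, 33.9, 32.9 and 34.8 CPM in the knockout, against 22.2, 19.2, 20.7 and 23.7 CPM in the control (0.59, SE 0.09, adjusted p = 0.01). Mmp12, the macrophage elastase, had 0.503, 0.977, 0.745 and 0.443 CPM in the knockout, against 0.240, 0.0316, 0.115 and 0.164 CPM in the control (2.28, SE 0.50, adjusted p = 0.0307, and 0.0565 with the block), and its call held with 3 of the 8 libraries left out in turn. Serpine2, a thrombin and urokinase inhibitor, had 0.817, 0.611, 1.16 and 1.1 CPM in the knockout, against 2.46, 5.31, 3.32 and 4.23 CPM in the control (-2.05, SE 0.28, adjusted p = 0.00646). Every knockout value was above every control value in 4 of the 25 (Inhba, Mmp12, Igfbp1 and Ctsb), against 7.17% of all tested genes. Every knockout value was below every control value in 1 of the 25 (Serpine2), against 7.93% of all tested genes. Ctsb was not called by edgeR (0.20, adjusted p = 0.127).

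Of 13 genes of the IGF axis, 11 were tested, 1 rose (Igfbp1) and 1 fell (Igfals), where 3.51% of all tested genes rose and 1.88% fell. The block ended both calls. The fasting- and insulin-controlled binding protein Igfbp1, which also counts among the further secreted factors, had 274, 422, 226 and 301 CPM in the knockout, against 65.1, 54.3, 117 and 52.5 CPM in the control (2.08, SE 0.30, adjusted p = 0.0106). With the block the adjusted p of Igfbp1 was 0.0544. Igfals, which stabilises the IGF and IGFBP3 complex in blood, had 78.4 ± 6.23 CPM in the knockout and 99.6 ± 7.90 CPM in the control (SD, n = 4 each, -0.35, adjusted p = 0.0408, and 0.0538 with the block), and it lost its call with any of the 8 libraries left out. Igf1 had 396 ± 26.3 CPM in the knockout and 438 ± 79.4 CPM in the control (-0.14, adjusted p = 0.559). Irs1, the adaptor of the insulin and IGF1 receptors, was the only gene of this list called with the block (-0.69, adjusted p = 0.0160, and 0.0540 without it).

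Of 33 receptors for these factors 31 were tested, 0 rose and 1 fell in the unblocked fit (5.39% of all genes in either direction). That was Fgfr4, the hepatocyte receptor for bile acid signalling by FGF, with 67.4, 65.5, 64.3 and 67.8 CPM in the knockout, against 79.7, 79.9, 80.7 and 85.8 CPM in the control (-0.30, SE 0.06, adjusted p = 0.0204), and the call held with 4 of the 8 libraries left out in turn. With the block Fgfr4 was also called, and Tgfbr2, a receptor of TGF-β, rose (0.45, adjusted p = 0.0321, and 0.164 without it). Of 12 genes around plasmin 10 were tested, and 1 rose in the unblocked fit, where 3.51% of all tested genes rose. This was Serpina5, an inhibitor of urokinase and protein C (0.509 ± 0.119 against 0.187 ± 0.0766 CPM, SD, n = 4 each, 1.44, adjusted p = 0.0417), with the call held in 1 of 8 fits that left out a library. With the block Serpina5 and the metalloproteinase inhibitor Reck rose (Reck 0.59, adjusted p = 0.0315), and plasminogen, Plg (-0.34, adjusted p = 0.0475), and the plasmin inhibitor Serpinf2 (-0.37, adjusted p = 0.0297) fell. In that fit 4.39% of all tested genes rose and 2.52% fell. Without the block the adjusted p was 0.166 for Reck, 0.100 for Plg and 0.0698 for Serpinf2. The 26 tested NF-κB and C/EBPβ genes, among them feedback inhibitors such as Nfkbia (-0.25, adjusted p = 0.0729), had a median log2 fold change of 0.00, and edgeR called 0 of them. At an unadjusted p below 0.05, 1 was higher and 1 lower, and DESeq2 called 0 higher and 1 lower.

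The heptamer UAUUUAU was common in these messages. It was searched on the RNA strand of the longest annotated 3′ UTR, overlapping copies included, and lay in 24 of the 38 genes. Among tested genes it lay in 21 of 32 (65.6%), against 4077 of 13707 genes (29.7%) with such an annotation, although the median 3′ UTR was shorter for the members (903 bases) than for all genes (1155 bases). Tested members without a match had a median 3′ UTR of 240 bases. Those with 1 copy, with 2 or 3 and with 4 or more had medians of 1189, 1101 and 1186 bases. The 21 tested members with a match had a median log2 fold change of 0.20 with 13 above 0, and the 11 without a match had a median of 0.39 with all 11 above 0, though with library sizes left as total counts Igfbp7 stood at 0.01. This difference between medians was -0.19 in the fit on all 8 libraries, and it was 0.20 with the nonamer that has a further U on each side. Taken within each of the 4 same-numbered pairs, the heptamer difference had an SD of 0.254. That SD is the spread of single pairs and not the error of the -0.19, and the difference was not tested. Over all tested genes those with a match had a median of 0.06 and those without a median of -0.03, and 6.08% of the first and 2.68% of the second were called higher in the knockout. Neither comparison, of members or of all genes, was adjusted for 3′ UTR length.

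By number of copies, the 11 tested members with 0 copies had the highest median log2 fold change, 0.39. Among members with a match the median was 0.16 with 1 copy, 0.24 with 2 or 3 and 0.35 with 4 or more. In the same order, 7 of 10, 3 of 5 and 3 of 6 members lay above 0, so that share did not rise. The ranges were wide, from -0.28 to 1.81 with 1 copy, -0.23 to 0.87 with 2 or 3 and -1.27 to 1.35 with 4 or more. A trend with the number of copies was not tested. The 6 with 4 or more copies were Tnf (8), Cxcl2 (7), Cxcl1 (6), Lif (5), Hgf (4) and Mmp13 (4). Of the genes called with the block, Cxcl1 fell with 6 copies, Igfbp2 rose with 1 copy and Cxcl10 rose with 0. A match is a description of letters in the annotated sequence and does not show binding.

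**Figure D5:**
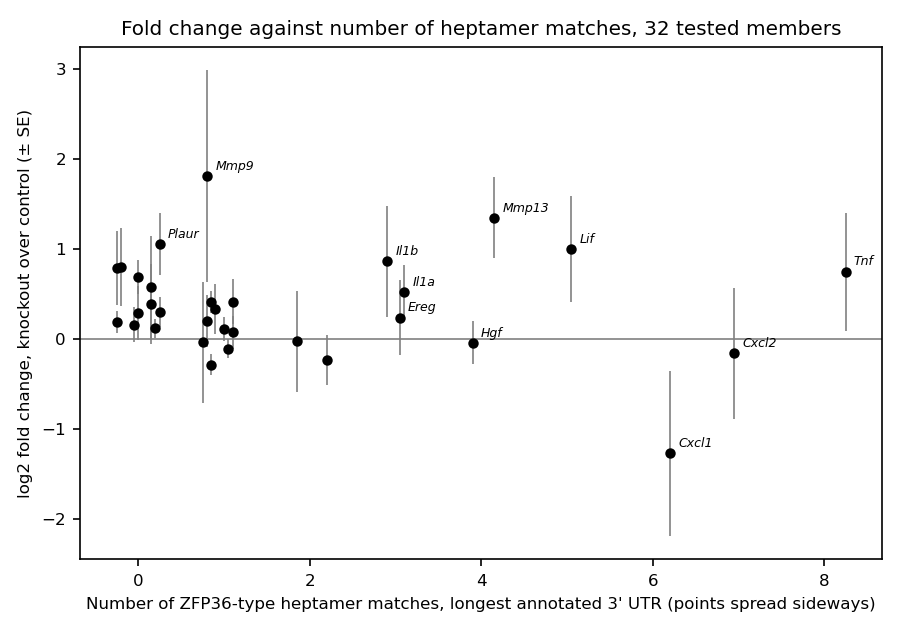
Log2 fold change, knockout over control (bars ± SE), against the number of heptamer matches in the longest annotated 3′ UTR of the 32 tested genes, with points spread sideways. Genes with 4 or more copies lie on both sides of 0, from Cxcl1 at -1.27 to Mmp13 at 1.35.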

How the data were processed

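Whole-liver mRNA was selected with an illustra QuickPrep kit and made into NEBNext Ultra II libraries, per the labels' protocols. The authors deposited raw read counts per gene for 25239 genes, and mm10 is named in the submitters' processing notes. The aligner, counter, annotation and strand setting were not given in the sources used here. Low counts were mostly even (67.4 to 70.8% of counts from 1 to 20, against 49.3 to 51.3% of counts of 200 or more), so halved counts were tried as an alternative.

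The 38 genes and the related lists were chosen with earlier results of these data known. All genes kept by filterByExpr (14861) were tested together with edgeR 4.0.16 in R 4.3.3 (TMM, robust quasi-likelihood fit, two-sided), with Benjamini-Hochberg adjustment over all of them and a threshold of 0.05. The script was tested on simulated data. Per gene, libraries of a group differed beyond sampling noise. Same-numbered libraries deviated together (correlations 0.165, 0.387, 0.306 and 0.402 over 14861 genes). The numbers were therefore also taken to pair the samples, on the data alone, since the labels do not say what a number shares. The unblocked fit was kept as the main one, because the labels state 2 groups and no pairing. The blocked fit is given beside a result where it changes a call. Alternatives were other scalings (RLE, total counts), no filter and a stricter filter, DESeq2 1.42.0, the block, and leaving out each library. Genes named are those with an unadjusted p below 0.05, the 2 highest levels in each role, non-overlapping groups, and called genes of each related list. Further genes are given by value. Gene positions and 3′ UTRs came from GENCODE M21, matched by symbol for 24374 genes. Intervals and limits at 0 counts cover the spread between libraries and counting error only.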

Additional observations from a re-analysis of the deposited data

Results flagged for a closer look

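In 5 of 80 groups checked over 40 genes, the highest or lowest of 4 libraries lay far from the rest, its gap to the nearest library divided by the group's range exceeding Dixon's 95% critical value for groups of 4. Chance gives about 1 in 20 such groups. Cxcl1 was 6.80 CPM in knockout library 4, against 0.513 to 1.19 CPM in the other knockout libraries (ratio 0.893). Serpina5 was 0.333 CPM in knockout library 3, against 0.548 to 0.589 CPM in the others (ratio 0.837). Among controls, Igfbp2 was 182 CPM in library 1, against 151 to 155 CPM in the others (ratio 0.893). Cxcl12 was 402 CPM in control library 3, against 316 to 328 CPM in the others (ratio 0.869). Fgfr4 was 85.8 CPM in control library 4, against 79.7 to 80.7 CPM in the others (ratio 0.838).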

How the results depend on the processing

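Counts of called members depended on the test. The 0 higher and 0 lower of the unblocked edgeR fit stayed 0 with RLE scaling, total counts, no filter, the stricter filter, halved counts and each library left out. The stricter filter tested only 18 members, without Plaur and Mmp13, and halved counts 26, so a 0 there covers fewer members. With a library left out, 169 to 583 of all genes were called higher and 42 to 384 lower, against 521 and 280 with all 8. DESeq2 called 3 higher. The replicate block called 2 higher and 1 lower, and the following 3 settings were chosen after seeing the data. DESeq2 with the block called 4 higher and 2 lower, and the block on total counts 0 higher and 2 lower (Cxcl1 and Cxcl12). With a pair left out, the block called 1 lower (Cxcl1) each time, and 1 higher without pair 2 (Igfbp2) or pair 4 (Plaur). The cause was not tested. Of 456 member values under planned settings, 434 kept direction and side of the threshold, 6 passed the threshold that they had missed and 16 changed sign. With total counts Plau was -0.037 (adjusted p = 0.918). With a library left out, log2 fold changes ranged from -0.61 to 0.49 for Cxcl2, -0.29 to 0.39 for Ccl3, -0.11 to 0.70 for Ereg, -0.21 to 0.15 for Hgf, -0.37 to 0.27 for Fgf2, -0.060 to 0.28 for Timp2, -0.035 to 0.21 for Plau and -0.15 to 0.65 for Igfbp6. Among related lists, the 4 calls of further secreted factors became 7 by DESeq2, and 3 to 4 with a library left out. The 1 receptor call became 3 with total counts, 2 by DESeq2, 2 with the block and 0 to 2 with a library left out. The 0 calls among NF-κB and C/EBPβ genes became 2 with total counts, 1 by DESeq2 and 0 to 2 with a library left out. The 2 calls of the IGF axis (Igfbp1 and Igfals) were both lost with the block, which gave 1 other call (Irs1), and numbered 1 to 2 with a library left out. The 1 plasmin call became 4 with total counts, 4 by DESeq2, 4 with the block, 0 under the stricter filter and 0 to 2 with a library left out. Igfals lost its call with any of the 8 libraries left out, Mmp12 with 5, Fgfr4 with 4 and Serpina5 with 7. The difference in median between members with and without the heptamer was -0.19, and 0.20 with the nonamer. Members under about 1 CPM, 13 of the 32 tested, rest on few counts, and intervals there span several-fold changes.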
